A study of Saccharomyces cerevisiae with 16 samples.

Results

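The first minutes of the response of wild-type budding yeast (Saccharomyces cerevisiae, WT) to benomyl were followed on the arrays taken 2 and 4 min after the drug, which are 2 of the 16 arrays of the series. They were chosen by their sample titles and set against the WT array taken at 30 s. The measure was the mean log2 ratio at 2 and 4 min minus that at 30 s, over the 5250 genes with a value on all 3 arrays. Each array compared a strain's total RNA with benomyl to the RNA of that strain without drug, with 1 array per strain and time and no replicates. The arrays set beside them were those of the DeltaYAP1 strain, which lacks the YAP1 gene, and the DeltaPDR1 strain, which lacks PDR1, at 30 s, 2 and 4 min, and the later WT arrays at 10, 20 and 40 min. The strain background, the dose and the growth conditions are not given in the sources used here, and since both channels of an array hold the same strain, its ratio cannot check a deletion.

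Benomyl binds tubulin and depolymerises microtubules, and cells also meet it as a toxic foreign chemical. Yap1 is a transcription factor of the bZIP family that gathers in the nucleus when its cysteines are modified by oxidants or electrophiles, and there activates genes for antioxidant enzymes, oxidoreductases and membrane exporters. Pdr1 is a zinc-cluster activator that sits on the promoters of ATP-driven drug pumps and can be switched on by drugs. Both factors are present in the cell before a drug arrives, so their targets are known as fast responders.

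Of the 6338 probes, 5521 had a value in WT at 30 s, 5636 at 2 min and 5345 at 4 min. The counts were 5546, 5668 and 5686 in DeltaYAP1. In DeltaPDR1 they were lower, at 4165 (65.7%), 3450 (54.4%) and 5186 (81.8%). Ratios were taken as log2 with the drug in the numerator. The base is not stated; with natural logarithms folds would be larger. A log2 value is thus the level with benomyl over the level without it, relative to the average of the array. Fewer cells with a transcript and less of it per cell cannot be told apart. The spread of all genes was small in these minutes: the standard deviation of the difference from 30 s was 0.263 at 2 min (5467 genes) and 0.295 at 4 min (5274 genes), and that between 4 and 2 min was 0.313. At 4 min 32 genes (0.607%) were at least 2-fold above 30 s and 1 (0.019%) at least 2-fold below it. At 2 min 16 (0.293%) were above and 8 (0.146%) below by as much. Both differences use the same 30 s array, so an odd value there enters both.

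The mean of 2 and 4 min was tested first, with the spread taken from the difference between the 2 and 4 min arrays of each of the 3 strains. A single feature passed, YIL168W, which stood at 0.42 at 30 s, 2.62 at 2 min and 2.35 at 4 min. It was high on both early arrays, 2.07 ± 0.23 (SE) above 30 s, with limma's adjusted p = 0.00265. This was 1 of 5250 genes up (0.019%) and 0 down (0%), while 142 genes had an unadjusted p under 0.05, against 262 expected by chance. The call was lost when the arrays were scaled to the same spread, where BEM2 and MSP1 passed instead, and with time as a block shared by the strains, an alternative chosen once the values were known (adjusted p = 0.411, 0 genes called and 198 at an unadjusted p under 0.05). YIL168W had no early value in either deletion strain. RefSeq lists YIL168W as a synonym of SDL1 (YIL167W), a serine dehydratase-like pseudogene of the reference strain. The SDL1 probe read -0.05 at 30 s, -0.06 at 2 min and 2.35 at 4 min, so these probes of the same locus differed by over 2 log2 units at 2 min and gave the same ratio at 4 min.

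This test finds steady shifts and loses genes still moving between 2 and 4 min, because that movement counts as spread. FLR1, for example, differed by 2.37 between 4 and 2 min, which put the SE of its mean difference of 1.94 at 0.75. Each time was therefore also set against 30 s alone, with the other WT array left out, where the WT array was assumed to vary like the early pairs of the deletion strains. In those fits every gene received the same SE of 0.295, so a call is in effect a threshold on size, near 1.1 log2 units. WT at 4 min rested on 1 array in this way. The p-values measure the spread between arrays of different times and not between cultures.

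At 4 min exporters and oxidoreductases led the genes that rose in WT. By the fit of 4 min alone, 26 of 5274 genes rose (0.493%) and 1 fell (0.019%). At 2 min alone, 12 of 5467 rose (0.219%) and 5 fell (0.0915%). Only YIL168W, YML131W, BEM2 and AI2 were called at both times, which is 23.5% of the calls at 2 min and 14.8% of those at 4 min. The spread was also taken from the 3 DeltaYAP1 arrays as repeats of each other, an alternative chosen once the values were known. Genes that move in DeltaYAP1, such as YKR075C (2.07 at 4 min minus 30 s) and SNQ2 (0.74), get a larger spread in it. This choice thus favours genes that move little in that strain. By this fit ATR1, FLR1, FRM2, GRE2, MRX16, SDL1, YCR102C and YML131W rose at 4 min, and no gene rose at 2 min. With scaled arrays this fit called 0 genes at 4 min too (291 at an unadjusted p under 0.05).

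**Figure D1:**
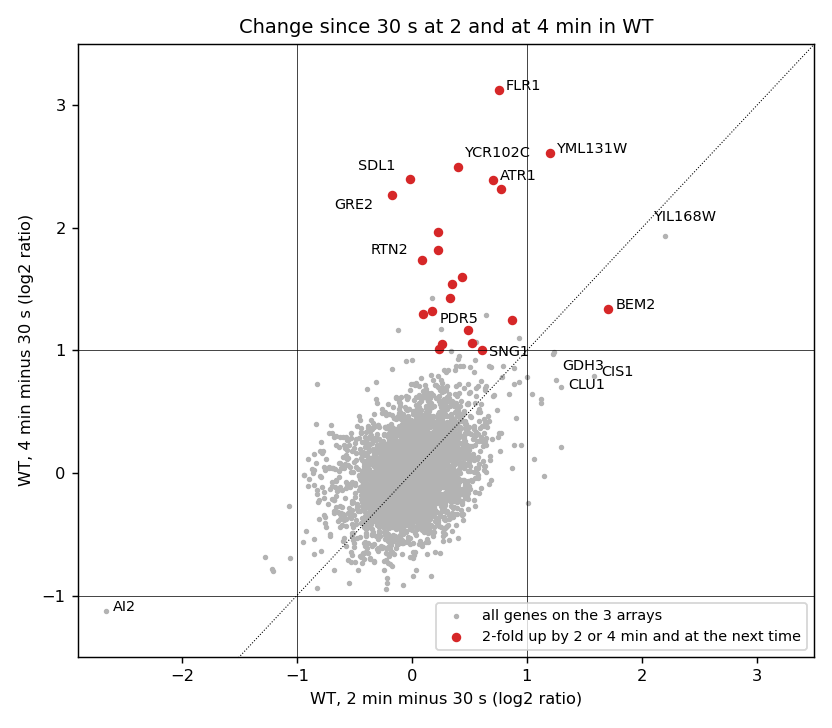
Each point is a gene on the WT arrays at 30 s, 2 and 4 min, with its log2 ratio at 2 min minus 30 s on the horizontal axis and at 4 min minus 30 s on the vertical axis. Red points are the 22 genes that were 2-fold up by 2 or 4 min and also at the next time; most lie far above the diagonal, with FLR1 at 0.76 and 3.12, and the lines mark a 2-fold change.

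FLR1, a major facilitator exporter known for benomyl resistance, showed the largest change at 4 min. Its log2 ratio was 0.06 at 30 s, 0.82 at 2 min and 3.18 at 4 min, and its peak of 5.48 came at 10 min. At 2 min it was 1.69-fold and at 4 min 8.72-fold above 30 s, and only the second passed. ATR1, another facilitator family exporter, gave -0.21, 0.50 and 2.18 at 30 s, 2 and 4 min and rose 5.24-fold by 4 min. It too was already higher at 2 min, by 0.70, without passing.

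The ATP-driven pumps showed smaller differences. SNQ2 gave 0.04 at 30 s, 0.38 at 2 min and 1.58 at 4 min, and PDR5 gave 0.03, 0.21 and 1.35. Both rose by 4 min, by 1.54 and 1.32 (SE 0.295; limma, adjusted p = 7.45e-05 and 0.00234), and neither was 1.5-fold above 30 s at 2 min. SNG1, a membrane protein that gives resistance to a mutagen, stood at 0.26, 0.87 and 1.27 at the 3 times and did not pass (1.002 above 30 s at 4 min, adjusted p = 0.110). The polyamine and drug exporter TPO1 (0.73 above 30 s at 4 min) and the ATP-driven pump YOR1 (0.82) did not pass either. Of 19 drug exporters tested out of 22 listed, 4 rose at 4 min, 0 at 2 min and 0 fell, and their median of the mean difference was 0.38, against -0.02 over all genes. PDR12, QDR2, TPO2 and PDR11 were among those below 0 at 4 min, with differences from -0.24 to -0.10.

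**Figure D2:**
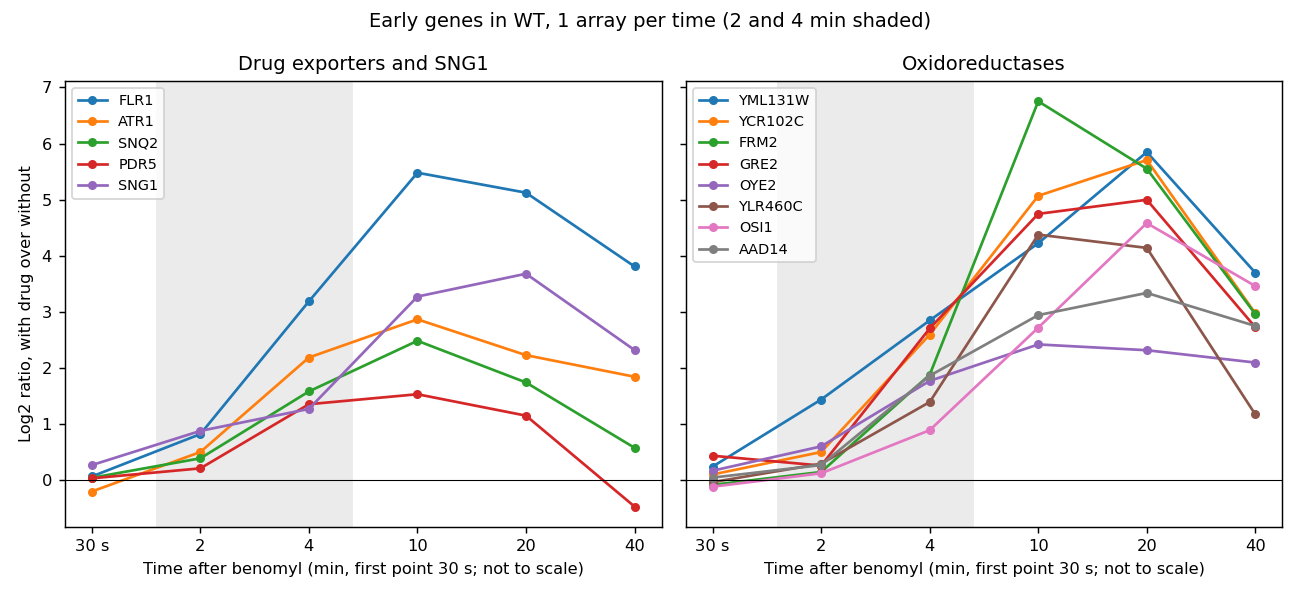
Log2 ratio of benomyl-treated over untreated WT cells at each time, 1 array per point, for exporters (left) and oxidoreductases (right), with the 2 and 4 min arrays shaded and the time axis not to scale. At 2 min the genes other than YML131W lie below 1, and by 4 min FLR1 and YML131W are near 3.

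Oxidoreductases linked to Yap1 made up the other large group. YML131W, a reductase of the medium-chain family, was the earliest of them in WT, as read from 1 array per time. It read 0.24 at 30 s, 1.43 at 2 min and 2.85 at 4 min, and later 4.22 (10 min) and 5.85 (20 min). It rose 2.29-fold by 2 min (limma, adjusted p = 0.0191 with 2 min alone) and 6.10-fold by 4 min, and climbed at each step to 20 min. YCR102C, a quinone reductase-like protein, gave 0.10, 0.50 and 2.59 at the first 3 times and 5.70 at 20 min. FRM2, a nitroreductase-like protein, gave -0.09, 0.14 and 1.88 and then 6.75 at 10 min, the highest value among the genes of the early wave. YML131W was the only one of these reductases above 1 at 2 min.

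GRE2, which reduces methylglyoxal, showed no lead at 2 min in WT: it read 0.43 at 30 s, 0.26 at 2 min and 2.70 at 4 min. It rose 4.83-fold by 4 min, although at 2 min it stood 0.18 below 30 s. OYE2, an NADPH dehydrogenase (old yellow enzyme), gave 0.16, 0.60 and 1.77 and rose 3.04-fold. YLR460C, similar in sequence to YCR102C, gave -0.04, 0.29 and 1.39 and rose 2.69-fold, and since the 2 genes are close relatives their probes may share signal. OSI1, induced in oxidative stress, gave -0.12, 0.12 and 0.89 and did not pass (limma, adjusted p = 0.105), nor did ECM4, a glutathione transferase (0.86 above 30 s at 4 min), OYE3 (0.00) and ADH7 (-0.20).

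Of the 10 members of this list with values (of 13), 6 rose at 4 min and 1 at 2 min, 9 were above 0 in the mean difference, and the median was 0.95, against -0.02 for all genes, of which 2391 of 5250 were above 0. From 2 min on, the list's median relative to 30 s was 0.30, then 1.52 (4 min), 4.12 (10 min), 4.63 (20 min) and 2.58 (40 min). The same medians over the 4634 genes on all WT arrays lay between -0.04 and -0.01. The list was drawn up with earlier results of these arrays known, so its count is a description.

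AAD14, an aryl-alcohol dehydrogenase, gave 0.04 at 30 s, 0.26 at 2 min and 1.86 at 4 min and rose 3.52-fold (limma, adjusted p = 4.05e-07). The other 5 family members with values had differences from 30 s between -0.17 and 0.36 at 4 min, though AAD6 stood at 2.54 and AAD3 at 1.51 by 10 min. These genes are near-identical in parts, and how far their probes share signal is not known. CCS1, the copper chaperone of superoxide dismutase, gave -0.20, 0.29 and 0.97 and rose 2.25-fold (adjusted p = 0.0167), while the dismutases SOD1 (-0.11) and SOD2 (0.20) and the catalase CTT1 (0.77) did not pass. In glutathione and thioredoxin metabolism 0 of 20 tested genes passed at either time. GSH1, which starts glutathione synthesis, stood 0.30 above 30 s at 2 min and 0.68 at 4 min, the glutathione transferase GTT2 0.15 and 0.62, and the thioredoxin TRX2 0.00 and -0.06.

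Other genes of the wave came from varied functions. MRX16, a mitochondrial protein, gave -0.22, 0.56 and 2.09 at the first 3 times and 4.39 by 10 min, a rise of 4.97-fold by 4 min. RTN2, a reticulon of the endoplasmic reticulum, gave 0.05, 0.14 and 1.79 and rose 3.34-fold, and it was the only gene of the wave with its highest value at 4 min. IMA4, an isomaltase, gave 0.14, 0.23 and 1.44 and rose 2.46-fold. YKR075C, which lies next to ECM4 in the R64 annotation, gave -0.20, 0.67 and 1.04 and rose by 1.25 (limma, adjusted p = 0.00652). FPY1 read -0.05, 0.47 and 1.01 and did not pass (adjusted p = 0.0600).

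The order of onset was read as the first time at which a gene was 2-fold from its 30 s value and stayed so at the next time (40 min has no next time, so its genes had to pass only there), among 4634 genes on all 6 WT arrays and with no test. Upward, 2 genes (0.0432%), YML131W and BEM2, had their onset at 2 min and 20 (0.432%) at 4 min, followed by 39 (0.842%) at 10 min, 43 (0.928%) at 20 min and 85 (1.83%) at 40 min. Downward, 1 gene (0.0216%) had its onset at 2 min and 0 (0%) at 4 min, followed by 5 (0.108%), 15 (0.324%) and 129 (2.78%) genes at the later times. BEM2 stayed below 0 at all 6 times, and without subtraction of the 30 s array the 2 genes at 2 min were YML131W and CIS1. By this rule 22 of the 23 genes with onset by 4 min were up. With a 1.5-fold threshold the onsets were 23 up and 6 down at 2 min and 43 up and 10 down at 4 min, with FLR1, ATR1, MRX16, SNG1 and YKR075C moving to 2 min.

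The 20 genes with onset at 4 min were AAD14, ATR1, CCS1, FLR1, FPY1, FRM2, GRE2, IMA4, MRX16, OSI1, OYE2, PDR5, RTN2, SDL1, SNG1, SNQ2, YCR102C, YKR075C, YLR460C and the unnamed probe_1934. At 2 min they ranged from -0.18 to 0.87 above 30 s with a median of 0.34, and 5 were at least 1.5-fold up, 5 lay within 0.2 of 30 s and 2, GRE2 and SDL1, were below it. For SDL1 this holds for its own probe, while the YIL168W probe of that locus read 2.62 at 2 min. At 4 min, where the rule chose them, they ranged from 1.002 to 3.12 with a median of 1.57. For 13 genes the highest WT value came at 10 min, for 6 it came at 20 min and for 1 at 4 min. SNG1 (1.002) and OSI1 (1.008) lay just inside the threshold and VHR1 (0.93), DRE2 (0.91), ECM4 (0.86), MRS4 (0.84), YOR1 (0.82) and STI1 (0.80) just outside.

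Besides YIL168W, the largest WT ratio at 2 min among the genes that rose was that of CIS1, ahead of YML131W. CIS1, a target of Pdr1, read 0.65, 2.23 and 1.44 at the first 3 times and 3.84 by 10 min. It rose by 1.59 by 2 min and was lower again at 4 min, where it did not pass (0.80, limma, adjusted p = 0.562). It also stood well above 0 at 30 s, so without subtraction of that array it was 2-fold up at 2 min and later.

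Several calls at 2 min had values far from 0 on the 30 s array. Of the 12 genes that rose at 2 min, 9 were at least 0.3 from 0 at 30 s, as were 10 of the 26 that rose at 4 min. Over all 5250 genes on the 3 WT arrays, 527 (10.0%) were at least 0.3 from 0 at 30 s. Since the 30 s value is part of the difference that chose the called genes, these counts are a description. BEM2, which acts in bud growth, read -1.99 at 30 s, -0.28 at 2 min and -0.65 at 4 min, so its difference from 30 s was positive while its own ratios stayed below 0. MSP1, a mitochondrial membrane ATPase, read -1.54, -0.31 and -0.57, and YDR034C-D, a Ty retrotransposon gene with many near-identical copies, -1.43, -0.19 and -0.44. All 3 were low at 30 s and closer to 0 afterwards, and the part of the 30 s array in these calls was not tested.

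CLU1 (-0.32, 0.98 and 0.39), the glutamate dehydrogenase GDH3 (-0.44, 0.81 and 0.32) and WTM2 (-0.30, 1.004 and -0.08), a transcriptional modulator, rose at 2 min and did not pass at 4 min. The genes that fell at 2 min included SMC2, a condensin subunit (0.73, -0.49 and -0.05), and RED1, a meiotic chromosome protein (0.56, -0.72 and -0.12). AI2, a maturase encoded in an intron of the mitochondrial COX1 gene, read 0.50, -2.16 and -0.62, and was the 1 gene that fell at both times. Its DeltaYAP1 ratios were 1.67, 1.36 and 0.16, so it moved widely between arrays there too. AI1 went the other way in WT (-1.79, -1.62 and -0.37), 1.42 above 30 s at 4 min with ratios still below 0. AI1, CLU1, GDH3 and WTM2 were chosen after their values were seen.

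Of the targets of Pdr1 and Pdr3, 13 of 13 tested members (of 17 listed) were above 0 in the mean difference, with a median of 0.41, against -0.02 for all genes. Of these, 1 rose at 2 min (CIS1) and 3 at 4 min (GRE2, SNQ2 and PDR5), and GRE2 is also on the oxidoreductase list. ICT1, a lipid acyltransferase, stood 0.12 above 30 s at 2 min and 0.69 at 4 min, and IPT1, a sphingolipid enzyme, -0.01 and 0.68, without passing. The genes of the regulators showed little: YAP1 read 0.15, -0.18 and -0.16 at the 3 times, PDR1 -0.20, -0.10 and -0.06, and PDR3 -0.22, 0.11 and -0.11. None of them passed, and neither did the tubulin genes TUB1 (-0.01, 0.05 and -0.04), TUB2 (-0.22, 0.27 and -0.29) and TUB3 (-0.04, 0.04 and -0.12).

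The other gene groups moved little in the first 4 min. Of 22 heat shock genes and chaperones tested at 4 min, 1 rose, SSA2 (1.10 above 30 s, with no value at 2 min, limma, adjusted p = 0.0364). The co-chaperone STI1 (0.80) and BTN2 (0.67), which sorts misfolded proteins and read 4.54 at 10 min, did not pass. The list median relative to 30 s was 0.07 and 0.15 at 2 and 4 min, against 0.65 by 10 min and 1.09 by 40 min. Of the general stress genes, RTN2 alone of 19 rose at 4 min, 4 of 18 were above 0 in the mean difference, and their median was -0.17, with HSP12 0.28 and GPP2 0.34 below 30 s at 4 min.

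All 8 core histone genes had a mean difference below 0 (median -0.23), and their median relative to 30 s was -0.05 and -0.40 at 2 and 4 min and later -0.34 (10 min) and -1.25 (40 min). At 4 min they ranged from -0.55 (HHF1) to -0.30 (HTB2), and 0 of 8 passed in limma at either time. By strain, the histone median at 4 min minus 30 s was 0.26 in DeltaYAP1 and -0.13 over 7 genes in DeltaPDR1, against -0.40 in WT, a difference that was not tested. In DeltaYAP1, HHF1 (-0.50 at 30 s and -0.06 at 4 min), HHT2 (-0.48 and -0.18) and HTB1 (-0.27 and -0.05) were low at 30 s. Their 4 min ratios there were still below 0, and HTA2 (-0.07 and -0.09) moved little. Ribosomal protein genes had a median of -0.11 with 23 of 106 above 0 and 0 called, and RPL27A (0.55, -0.30 and -0.11) and RPL14B (0.75, 0.20 and -0.15) were high at 30 s. Sulphur assimilation genes had 19 of 22 above 0 with a median of 0.09 and 0 called, and MET1 stood 0.78 above 30 s at both times. The G1 cyclin CLN2 stood 0.42 below 30 s at 2 min and 0.70 below at 4 min, and the repressor YOX1 0.21 and 0.90 below, with 0 of the G1/S genes called. The other lists of cell cycle, tubulin folding, spindle checkpoint, cell wall, calcium, iron, phosphate, sterol, proteasome, mating, amino acid and ribosome biogenesis genes, glycolysis and transcription factors also had 0 members called at 2 or 4 min, and their medians of the mean difference lay between -0.13 and 0.12.

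**Figure D3:**
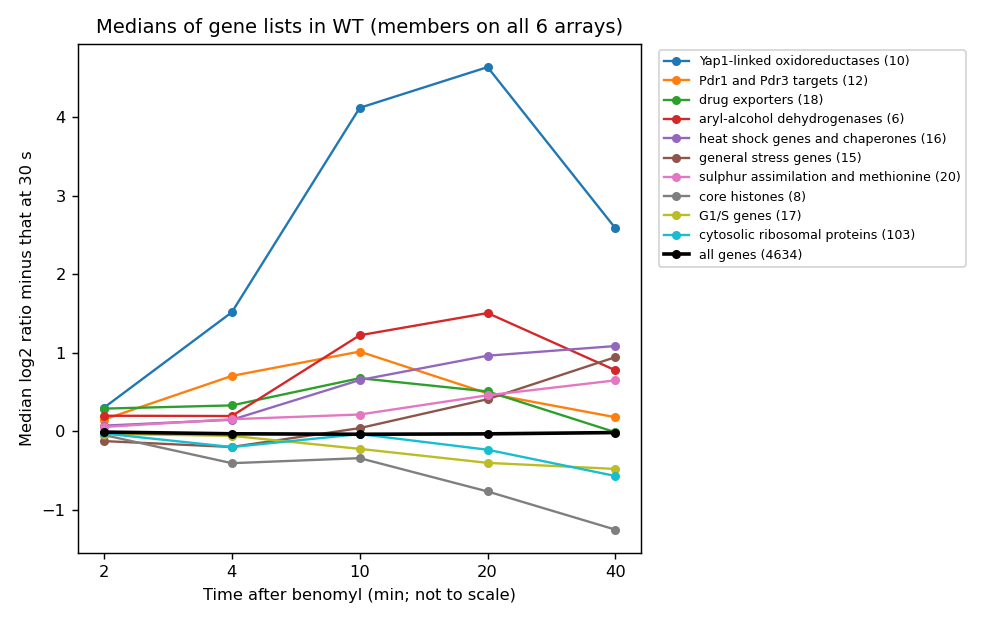
Median log2 ratio minus that at 30 s in WT for 10 gene lists and for all 4634 genes with values on all 6 arrays, by time after benomyl (not to scale), with the number of members in the legend. The Yap1-linked oxidoreductases leave the others by 4 min (1.52), while heat shock genes reach 0.65 at 10 min and core histones -1.25 at 40 min.

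The same wave was looked for in the deletion strains, whose arrays the onset rule did not use. In DeltaYAP1, 19 of the 20 genes with onset at 4 min had values, and their median at 4 min minus 30 s was 0.03, with 1 gene (YKR075C) at least 2-fold up and 10 above 0. Over all genes of that strain 0.255% were 2-fold up at 4 min. In DeltaPDR1, 18 had values, the median was 1.51, 12 were at least 2-fold up and all 18 were above 0, where 0.639% of all genes were 2-fold up. In WT the rule sets all 20 at 2-fold or more, and 0.607% of all genes were. At 2 min the median of the set was 0.00 in DeltaYAP1, 0.27 in DeltaPDR1 and 0.34 in WT.

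FLR1 shows the pattern: it read 0.13, -0.06 and 0.12 at 30 s, 2 and 4 min in DeltaYAP1 and 0.24, 0.79 and 3.10 in DeltaPDR1, against 0.06, 0.82 and 3.18 in WT. The DeltaYAP1 course stayed near 0, and the DeltaPDR1 course lay close to that of WT. YML131W read -0.46, 0.14 and -0.01 in DeltaYAP1 and 0.13, 0.80 and 2.61 in DeltaPDR1. At 2 min minus 30 s in DeltaPDR1, OYE2 (0.97) and GRE2 (0.82) stood above YML131W (0.67). FRM2 (0.65), YCR102C (0.28), OSI1 (0.245) and YLR460C (0.235) stood below it there. FRM2 read 0.09, 0.04 and -0.04 in DeltaYAP1 and 0.24, 0.89 and 2.84 in DeltaPDR1, against -0.09, 0.14 and 1.88 in WT. For the SDL1 probe the DeltaPDR1 ratios of -0.02, 0.74 and 2.88 lay above those of WT at 2 and 4 min, and the DeltaYAP1 ratios stayed between -0.12 and 0.05. The YIL168W probe of that locus read 2.62 in WT at 2 min and had no early value in DeltaPDR1, so the 2 min order rests on the SDL1 probe alone.

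Pumps that Pdr1 is known to activate differed from each other: at 4 min PDR5 was lowest in DeltaPDR1 and SNQ2 in DeltaYAP1. PDR5 read 0.07, 0.30 and 0.64 in DeltaYAP1 and 0.02, 0.08 and 0.18 in DeltaPDR1, against 0.03, 0.21 and 1.35 in WT. SNQ2 read -0.18, 0.35 and 0.56 in DeltaYAP1 and -0.12, 0.14 and 1.05 in DeltaPDR1, against 0.04, 0.38 and 1.58 in WT. RTN2 was lower at 4 min in both deletions. It read 0.45, -0.19 and 0.66 in DeltaYAP1 and -0.005, 0.24 and 0.49 in DeltaPDR1, against 0.05, 0.14 and 1.79 in WT. Its difference at 4 min minus 30 s was 0.21 in DeltaYAP1 and 0.496 in DeltaPDR1. YKR075C was the 1 gene of the set with a higher ratio at 4 min in DeltaYAP1 (0.06, 1.10 and 2.13) than in WT (-0.20, 0.67 and 1.04), and had no value in DeltaPDR1. CIS1 read 0.43, 0.59 and 1.62 in DeltaYAP1 and -0.03, 0.87 and 1.47 in DeltaPDR1, against 0.65, 2.23 and 1.44 in WT, so it was above 1 at 4 min in all 3 strains.

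**Figure D4:**
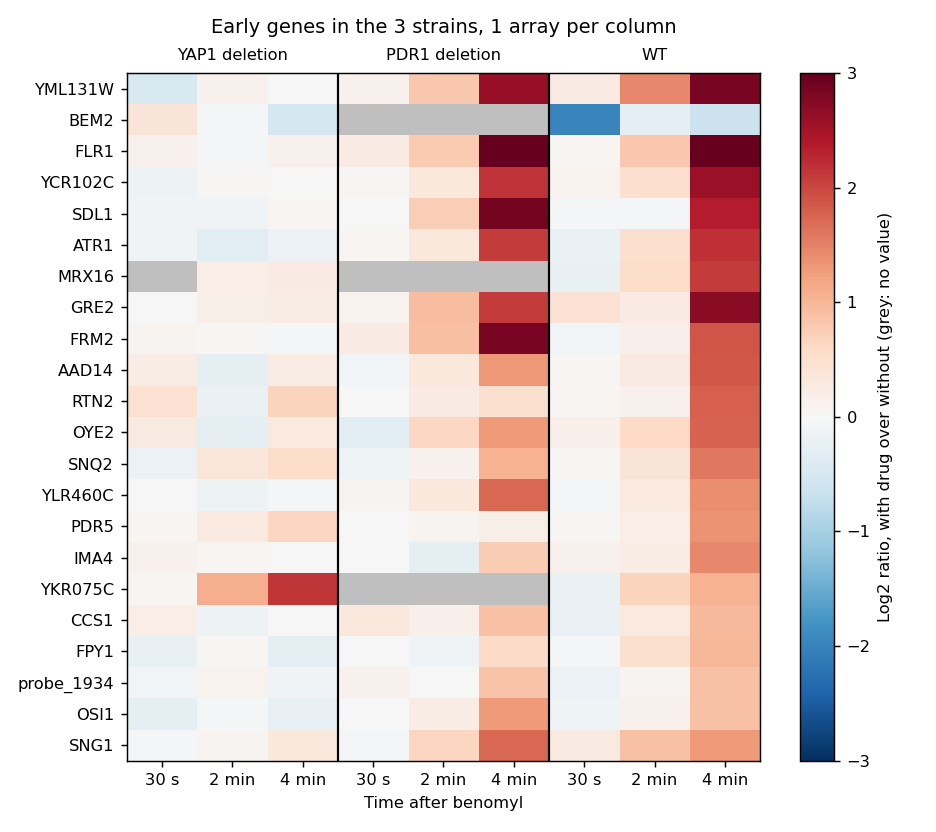
Log2 ratios of the 22 genes with upward onset at 2 or 4 min in WT, 1 column per array (30 s, 2 and 4 min) for DeltaYAP1, DeltaPDR1 and WT, with grey for no value and the colour scale ending at -3 and 3. In the DeltaYAP1 columns YKR075C stands highest (2.13 at 4 min) and BEM2 is at -0.52 at 4 min. RTN2, PDR5 and SNQ2 reach 0.66, 0.64 and 0.56 there, with RTN2 already at 0.45 at 30 s. The DeltaPDR1 columns resemble WT at 4 min except for genes such as PDR5 (0.18) and RTN2 (0.49).

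The strain differences were tested on the response itself. Over the mean of 2 and 4 min, limma called 0 of 5115 genes (0%) for DeltaYAP1 minus WT and 0 of 3753 (0%) for DeltaPDR1 minus WT, with 124 and 56 genes at an unadjusted p under 0.05. As for WT alone, a difference that grows from 2 to 4 min adds to the spread here. With the WT array at 2 min left out, so that the DeltaYAP1 mean of 2 and 4 min was set against WT at 4 min, 14 of 5136 genes (0.273%) were lower in DeltaYAP1 and 0 higher. FLR1 differed by -3.23 ± 0.39 (SE; limma, adjusted p = 8.25e-13), ATR1 by -2.54, YCR102C by -2.34, SDL1 by -2.31, YML131W by -2.08, AAD14 by -2.07 and FRM2 and GRE2 by -2.05. BEM2, RTN2, OYE2, NPL3, YLR460C and FLC1 were also lower, by -2.00 to -1.51. Lower here refers to the difference from 30 s and not to the ratio itself. BEM2 read 0.39, -0.02 and -0.52 in DeltaYAP1, against -1.99, -0.28 and -0.65 in WT. NPL3 read 0.825, 0.54 and 0.35 in DeltaYAP1, against -0.91, -1.03 and 0.25 in WT. For BEM2 and NPL3 the 4 min ratio was higher in DeltaYAP1 than in WT, and the 30 s ratios of both strains enter their differences.

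The times in that comparison are not matched. At 4 min in both strains, likewise chosen once the values were known, the spread came from the DeltaPDR1 pair, whose own FLR1 moved by over 2 log2 units from 2 to 4 min. There FLR1 differed by -3.14 ± 0.76 (adjusted p = 0.402), ATR1 by -2.45 ± 0.63 (adjusted p = 0.407) and GRE2 by -2.02 ± 0.50 (adjusted p = 0.402), and only BEM2 passed (-2.25, adjusted p = 0.0211), 1 of 5119 genes (0.0195%). Set against WT at 2 min alone, the DeltaPDR1 mean had 2 genes higher (GRE2 and SDL1) and 2 lower (CLU1 and GDH3) of 3818 (0.0524% each). For DeltaPDR1 minus WT at 4 min in both, 0 of 3739 genes passed (0%), with 78 at an unadjusted p under 0.05. PDR5 differed by -1.16 ± 0.41 (adjusted p = 0.999), RTN2 by -1.24 ± 0.41 (adjusted p = 0.914), and FLR1 by -0.27 ± 0.41, values that do not show whether these genes act alike or differ in the 2 strains.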

How the data were processed

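The deposited values are log ratios of spotted 2-channel arrays, 1 column per array, which the authors had centred (array means lie between -0.0012 and 0.00047). Per the labels, channel 1 is the strain with drug and channel 2 the strain without. The authors' deposited log ratios were taken as log2 values. Base, dye, background correction and spot filters are not given in the sources used here. Probes were named through the platform annotation and RefSeq R64: 5628 of 6338 had a symbol (5 not in RefSeq), 710 had none, and probes of 17 genes were averaged, which gave 6321 features.

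A cell-means model of strain by phase (30 s; 2 and 4 min) was fitted to 9 arrays of the 3 strains with limma 3.58.1 in R 4.3.3 (lmFit, eBayes, two-sided). It had at most 3 residual degrees of freedom, and shrinkage added 12.7. A gene was called where its p, adjusted by Benjamini and Hochberg, was under 0.05 over all genes with an estimate. The fits were run on simulated data (200 changed genes). With a change of 1 at both times, the fit of the mean of 2 and 4 min in WT recovered 83.5% of them. With 0.5 at 2 min and 1.5 at 4 min it recovered 0%. For DeltaYAP1 minus WT the shares were 24.4% and 0%. The absence of calls between strains over the mean of 2 and 4 min thus cannot decide on changes that grow from 2 to 4 min. In fits of single times the prior degrees of freedom were infinite. Onset times, gene lists and strain medians have no test.

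Named genes were the calls, the 15 highest and 15 lowest mean differences with the same direction at both times, onset genes of 2 and 4 min, up to 4 members of largest size per list (27 lists), the calls between strains, and YAP1, PDR1, PDR3, FLR1, SNQ2, PDR5 and the tubulin genes. Other list members, and calls of single-time fits, were named after their values were seen. The members and lists were chosen with earlier results of these data known. Promoter and protein sequences were not used here. Alternatives covered the arrays in the fit, scaling, a trend along probe order, genes without missing values, robust shrinkage, each array left out, a time block (added once values were known), the baseline and the onset threshold.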

Additional observations from a re-analysis of the deposited data

Results flagged for a closer look

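For 7 of the 21 early-wave genes with DeltaYAP1 values, both DeltaYAP1 arrays (2 and 4 min) lay below the 30 s array of that strain while both WT arrays lay above theirs. The onset rule chose these genes for a rise in WT, and the share over all genes was not counted. Of the 21 genes, 11 were above 0 in DeltaYAP1 at 4 min minus 30 s, with a median of 0.03. Both DeltaYAP1 differences also share 1 array at 30 s. The mean difference from 30 s in DeltaYAP1 was -0.66 for BEM2 (WT 1.52), -0.10 for FLR1 (WT 1.94), -0.15 for ATR1 (WT 1.55), -0.0885 for FRM2 (WT 1.10), -0.10 for YLR460C (WT 0.88), -0.10 for IMA4 (WT 0.70) and -0.26 for CCS1 (WT 0.83). As a pattern of signs over 2 arrays a strain, the opposite directions were not tested. The difference of the mean responses was tested in limma and did not pass for any of the 7 (adjusted p = 0.145 for BEM2 and 0.999 for the others). Apart from BEM2 and CCS1 the DeltaYAP1 values are within 0.15 of 0.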

How the results depend on the processing

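Over 48 named genes and 754 comparisons of the mean of 2 and 4 min with 30 s, 677 kept direction and side of the threshold, 60 kept direction and now passed, 2 were lost (YIL168W, 2.21 with scaled arrays and 2.07 with time as a block) and 15 changed sign. Without subtraction of the 30 s array the sign turned for BEM2 (-0.47), MSP1 (-0.44), YDR034C-D (-0.32), PDR1 (-0.078), PDR3 (-0.001), TUB2 (-0.0075) and RPL14B (0.026), and without the WT array at 4 min for GRE2 (-0.18, or 2.27 without the one at 2 min), SDL1 (-0.017 or 2.395) and TUB3 (0.076 or -0.081). Without the WT array at 2 min it turned for TUB1 (-0.026, or 0.065 without the one at 4 min) and TUB2 (-0.066 or 0.49), and TUB3 became 0.037 with array medians subtracted, 0.031 with scaled arrays and 0.014 with the probe-order trend removed. The WT count of 1 up and 0 down was 2 up with scaled arrays, 0 up with genes on all 9 arrays only, 0 up with time (2 or 4 min) as a block shared by the strains, 19 up and 3 down with the WT arrays alone, and 8 up and 2 down without subtraction of 30 s. With each array left out it ranged from 1 to 26 up and from 0 to 5 down, and the extremes were the single-time fits. For DeltaYAP1 minus WT 1 gene was lower with scaled arrays, from 0 to 14 were lower and from 0 to 1 higher with each array left out, and at matched times 1 was lower at 4 min and 1 (AI2) higher at 2 min. For DeltaPDR1 minus WT, leaving out an array changed the calls only without the WT array at 4 min (GRE2 and SDL1 higher, CLU1 and GDH3 lower). That fit sets the DeltaPDR1 mean of 2 and 4 min against WT at 2 min, so its times are not matched. At 2 min in both strains GRE2 differed by 0.99 and the SDL1 probe by 0.78. With the DeltaYAP1 arrays as the spread, the single-time counts of 12 up and 5 down at 2 min became 0 and 0, and 26 up and 1 down at 4 min became 8 and 0, or 0 and 0 with arrays scaled as well. Onsets at a 1.5-fold threshold were 23 up and 6 down at 2 min and 43 up and 10 down at 4 min. Without the need to persist, 12 genes were up and 3 down at 2 min. Without subtraction of 30 s, 0 were down at 2 min, and of the 2 up 1 was shared (CIS1 took the place of BEM2). With scaled arrays 10 were up and 4 down at 2 min and 15 up and 1 down at 4 min. The cause of these shifts was not tested. No paired analysis was possible because the labels give no replicate numbers to pair, though times match across strains, and the time block above uses that match. It called 0 genes between strains as well (limma, 193 at an unadjusted p under 0.05 for DeltaYAP1 minus WT and 69 for DeltaPDR1 minus WT). With 1 array per time the precision is limited, and spot intensities were not used here.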
